A study of Homo sapiens with 7 samples.

Results

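The endoplasmic reticulum (ER) genes described here are 45 genes of protein entry into the ER, protein folding and ER stress signalling, taken by symbol from a table of 20072 gene symbols. They comprise 6 proteins of the signal recognition particle, 9 proteins of the translocon, 5 subunits of the signal peptidase, 6 subunits of the oligosaccharyltransferase, 13 chaperones and folding enzymes, 3 genes of ER-associated degradation, and 3 genes of the unfolded protein response (UPR), namely ERN1, ATF6 and XBP1. The first 5 classes, 39 genes in all, are called the machinery below, and ERN1, ATF6 and XBP1 the sensor group, although XBP1 is a transcription factor that acts downstream of a sensor. All 45 had values in every library, and all 45 were among the 14305 genes tested, whose mean in TR, RA or TA reached 1 RPKM.

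HCT116, an established human colorectal carcinoma line, was sampled in log phase growth without serum, in McCoy's 5A supplemented with epidermal growth factor, insulin and transferrin. Transcription rate (TR) was read by GRO-seq, in which polymerases already on the DNA of isolated nuclei extend their RNA, in 2 libraries. mRNA abundance (RA) was read by RNA-seq in 3 libraries, and translation activity (TA) by sequencing mRNA from the polysome fractions of a sucrose gradient in 2 libraries, after a short cycloheximide treatment that holds ribosomes on the mRNA. The 3 groups are therefore assays of a single untreated cell line and not conditions, mRNA was selected with a kit for RA and TA, and p-values measure the spread between these 7 libraries.

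A protein bound for the ER membrane, the secretory pathway or the cell surface carries a signal sequence that the signal recognition particle catches as it leaves the ribosome. The ribosome then docks on the translocon, where the chain is threaded through the membrane, the signal is removed by the signal peptidase, sugars are added by the oligosaccharyltransferase, and chaperones and disulphide isomerases fold it. Unfolded protein in the ER activates the sensors IRE1 (gene ERN1), ATF6 and PERK. ATF6 and spliced XBP1 then bind short promoter elements of chaperone and degradation genes, of which the ER stress response element (ERSE) and its shorter relative ERSE-II are the best known.

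ERSE or ERSE-II lay in promoters of HSPA5, HERPUD1 and HSP90B1, the ER genes highest in RA replicate 2 over RA replicate 1. Neither element was found for PDIA4, DNAJB9, EDEM1 and SEC11C, which came next in that ratio. CALR, CANX, XBP1 and SDF2L1 held an element and were under 2-fold. Past 2-fold were 5 genes with an element and 7 without. Promoter windows of 300 bases, 250 before and 50 after the start of each gene, came from RefSeq (GRCh38.p14) for 41 of the 45 genes, and those of SPCS1, RPN1, STT3B and PDIA3 were not matched. Capitals mark the fixed letters of ERSE, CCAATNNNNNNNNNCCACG, or of ERSE-II, ATTGGNCCACG, searched on both strands, and each sequence is written along the strand that matched.
HSPA5, chr9:125241391-125241409: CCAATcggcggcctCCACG
HSP90B1, chr12:103930216-103930234: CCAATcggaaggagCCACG
HSP90B1, chr12:103930321-103930339: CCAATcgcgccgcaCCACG
CALR, chr19:12938384-12938402: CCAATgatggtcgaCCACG
CANX, chr5:179698778-179698796: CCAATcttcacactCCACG
PDIA6, chr2:10812853-10812871: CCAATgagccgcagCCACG
XBP1, chr22:28800603-28800621: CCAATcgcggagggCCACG
HERPUD1, chr16:56932025-56932035: ATTGGgCCACG
HYOU1, chr11:119057274-119057284: ATTGGaCCACG
HYOU1, chr11:119057380-119057390: ATTGGaCCACG
SDF2L1, chr22:21642114-21642124: ATTGGtCCACG

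ERSE lay in 6 of the 41 promoters and in 0.0916% of the promoters of 27305 symbols, and ERSE-II lay in 3 of the 41 and in 0.0696% of all. Either element was found in 9 of 41 ER genes, 22%, against 44 symbols or 0.161% of all. The elements are known from chaperone and degradation genes, which the list holds, so this difference is no independent result. In HSPA5 the element lay 66 to 48 bases before the start. The matches in CALR and SDF2L1, the second match of HSP90B1 and both matches of HYOU1 ran against the direction of the gene. For CANX the distance from the start depended on which of the RefSeq starts was taken. The letters CCACG alone, which are part of both elements, were in 30 of 41 promoters and in 42.1% of all. The core of a further element of XBP1 and ATF6, TGACGTGG, whose reverse strand also holds CCACG, was in 5 promoters (HYOU1, SEC62, SRP19, SSR3 and SSR4) and in 0.927% of all, and in HYOU1 it overlapped an ERSE-II match. A match describes letters and not binding, and no match says only that these letters are not in this window.

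The libraries held 3391897 to 5629982 reads for TR, 20299018 to 22532134 for RA and 22421062 to 30805391 for TA. TR was therefore the least deeply read, and the ER gene with the fewest reads in any library was SEC61G, with 34 in TR replicate 1. Epithelial markers summed to between 1910 and 2560 RPKM in RA, with KRT8, KRT18, KRT19, EPCAM and CDH1 all detected. Of the intestinal genes, VIL1 and CDX1 were at or near 0 in RA and TA. CDX2 was detected, with 10.3, 7.83 and 8.77 RPKM in RA and 4.39 and 5.98 in TA. Leukocyte markers summed to at most 0.458 RPKM and endothelial markers to at most 0.225 RPKM in RA. Fibroblast markers summed to between 10.1 and 13.9 RPKM in RA, with COL1A1 the 1 gene of 4 at 1 RPKM or more. RNA-seq replicate 1 was the lowest RA library for part of the ER genes, as described with the replicates below. The counts of ER genes above 0 on both indices, and the values of several genes, are given with and without it. RPKM values are shares of a library, so the 0 of a ratio depends on scaling. Over all 14305 genes the median log2 ratio was −0.58 for RA over TR, −0.37 for TA over RA and −1.08 for TA over TR, and centring each library on its median moved these to 0.09, 0.13 and 0.09.

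**Figure D1:**
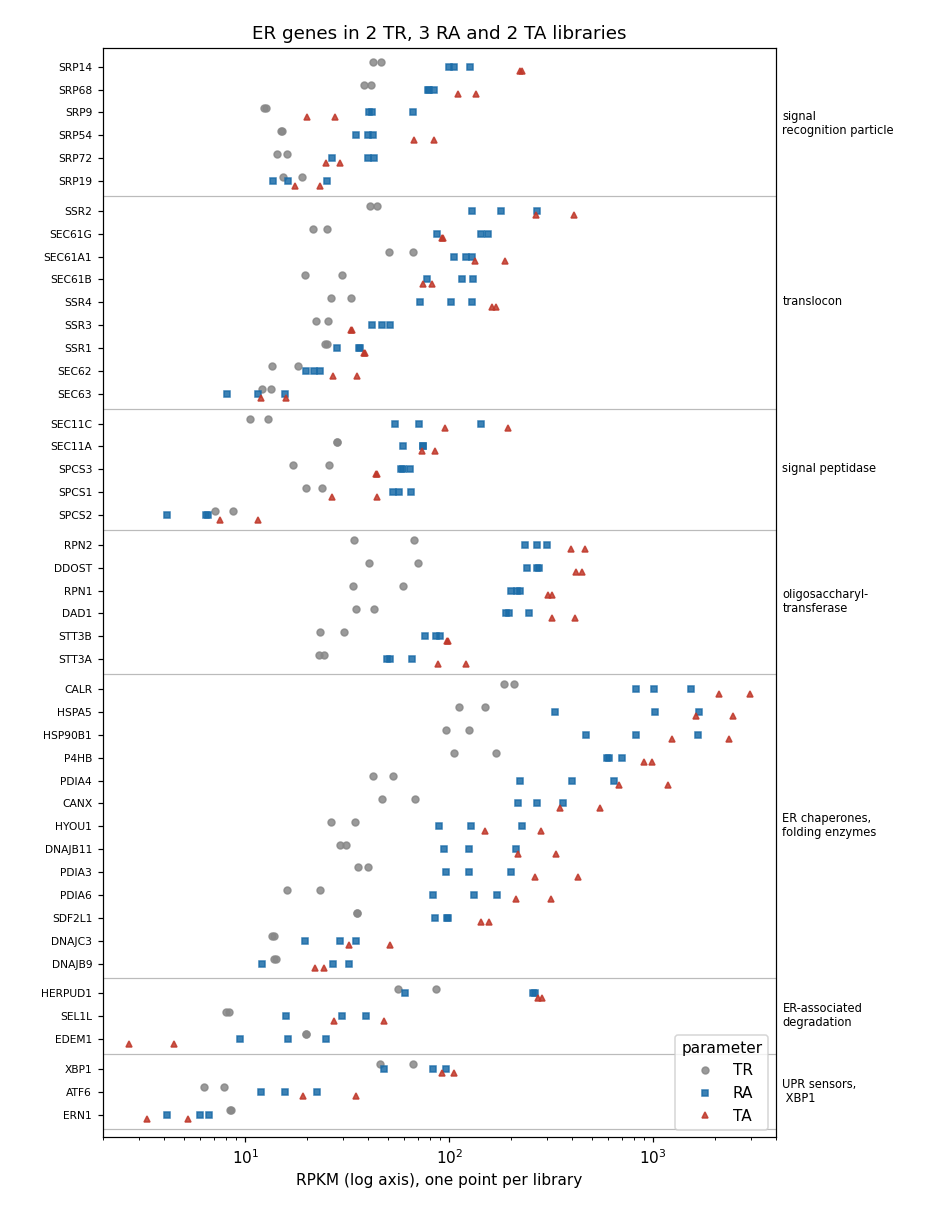
RPKM of the 45 ER genes (x axis, log scale) in 2 TR (circles), 3 RA (squares) and 2 TA libraries (triangles), 1 point per library, ordered within each class by mean RA. The 3 RA libraries lay above both TR libraries for 37 of the 45 genes, and both TA libraries lay below both TR libraries for EDEM1 and ERN1.

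The study's ratios ask how far an mRNA's abundance departs from its transcription (log2(RA/TR), the stability index) and how far its presence on polysomes departs from its abundance (log2(TA/RA), the translation index). Most ER genes were higher in RA than in TR and higher again in TA. The median over the 45 genes was 26.8 RPKM in TR, 89.3 in RA and 104 in TA. As a share of all reads, the 45 genes took 0.532% and 0.470% of the TR libraries, 1.44%, 3.01% and 2.08% of the RA libraries, and 4.51% and 3.09% of the TA libraries. No RA library overlapped the TR libraries in this share and no TA library overlapped the RA libraries, and RA replicate 1 was the lowest of the RA libraries.

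By limma with Benjamini-Hochberg adjustment over all genes, at an adjusted p of 0.05, 35 of the 45 ER genes were called above 0 on the stability index, against 19.2% of all genes. It was called below 0 for 0 of the 45, against 48% of all genes. The median was 1.52, a 2.86-fold higher RPKM in RA than in TR. All 3 RA libraries lay above both TR libraries for 37 ER genes, against 24.3% of all genes, and below them for SPCS2 and ERN1, against 54.9%. Of these 35 calls, 30 held when each library was left out in turn. Leaving out TR replicate 1 or TR replicate 2 lost ATF6, DNAJC3, HSPA5 and SEL1L, and leaving out TR replicate 2 also lost SEC61A1. Without RA replicate 1 the count was 39, with DNAJB9, HERPUD1, SSR1 and XBP1 added, while all genes above 0 went from 2743 to 2791.

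The translation index separated the ER genes less. It was called above 0 for 9 of 45, against 6.66% of all genes, and below 0 for 4, against 29.2% of all genes, with a median of 0.58. The genes above 0 were SRP14, SRP54, SRP68, DAD1, STT3A, CALR, PDIA3, PDIA6 and SDF2L1, and those below were SRP9, SSR3, SPCS1 and EDEM1. Both TA libraries lay above all 3 RA libraries for 22 ER genes, against 14.4% of all genes, and below them for 5, against 43.8%. The split followed the scaling. With libraries centred on their medians, 26 ER genes were above 0 and 1 below, and all genes went from 953 above and 4173 below to 2713 above and 1404 below. SRP14 and EDEM1 were called whichever library was left out. Without RA replicate 1 the count above 0 was 7, with CALR and PDIA6 lost, and the median was 0.45, while all genes went from 953 to 1030. Of the 9 genes above 0, 3 were still called without RA replicate 3, where all genes fell to 422. Leaving out RA replicate 2 raised the count to 16, while all genes fell to 831. Without TA replicate 1 the median of the ER genes was 0.34.

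TA over TR, which spans both steps, was called above 0 for 38 ER genes, against 17% of all genes, and below 0 for EDEM1 and ERN1, against 57.5% of all genes. Its median was 2.0, a 4.01-fold difference. All 3 comparisons share libraries, RA being the numerator of the stability index and the denominator of the translation index, so they are given side by side and not as support for each other. The index was above the median of all genes for 44 of 45 ER genes in RA over TR, 36 in TA over RA and 44 in TA over TR.

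**Figure D2:**
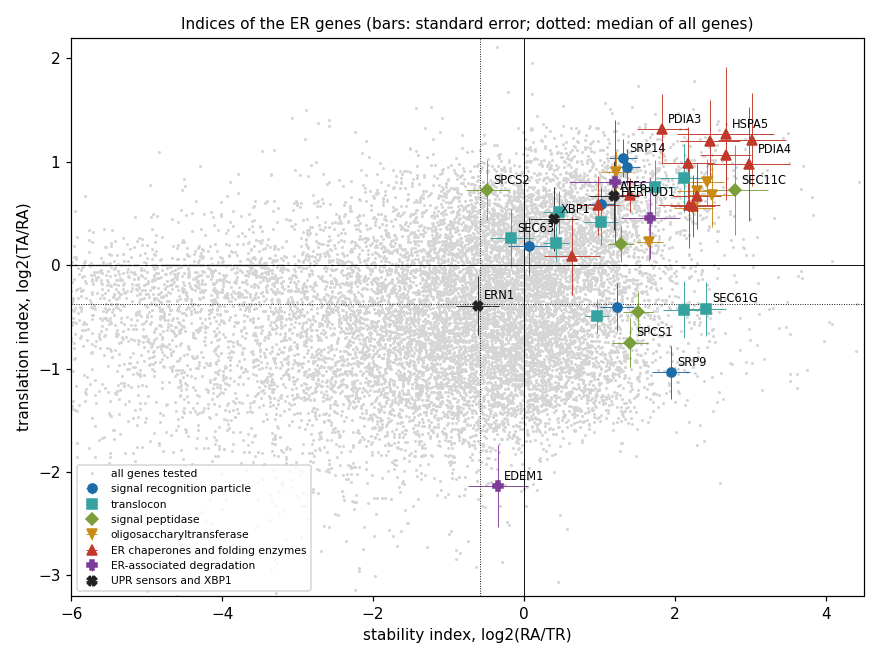
Stability index (x axis, log2 of RA over TR) against translation index (y axis, log2 of TA over RA) of the 45 ER genes by class, with standard errors as bars, over all genes tested (grey dots; some lie outside the axes) and their medians (dotted). EDEM1 lay at −2.14 on the translation index, while SRP14 and SRP9 lay at 1.03 and −1.04.

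Of the 6 signal recognition particle genes, 5 were called above 0 on the stability index (median 1.27), and on the translation index 3 were called above 0 and 1 below. Its proteins SRP9 and SRP14 form the heterodimer that pauses elongation, and the pair lay on opposite sides of 0 on the translation index. SRP9 (chr1:225965515-225978170, plus strand, GRCh37) had 12.6 and 12.3 RPKM in TR, 66.7, 40.4 and 41.9 in RA, and 20.2 and 27.4 in TA. SRP14 (chr15:40327891-40331382, minus strand) had 46.0 and 42.1 RPKM in TR, 126, 105 and 99.4 in RA, and 221 and 228 in TA. RA was above TR for both genes in every library, but TA lay below every RA library for SRP9 and above every RA library for SRP14.

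The stability index of SRP9, the highest of the class, was 1.95 with a standard error of 0.25 (limma, adjusted p = 0.000228), and its translation index, the lowest, was −1.04 with a standard error of 0.25 (adjusted p = 0.0174). That second call was lost without TR replicate 1 (adjusted p = 0.0561), TR replicate 2 (adjusted p = 0.0562) or TA replicate 1, where the index was −0.82 (adjusted p = 0.120). SRP14 had a stability index of 1.31 and a translation index of 1.03, both with a standard error of 0.18 (limma, adjusted p = 0.00586 for the second). SRP9 has a copy elsewhere in GRCh37 over 98.6% of its canonical transcript at 95% identity or more, and SRP14 over 65.1% in separate stretches, so the values of both are uncertain. SRP54, the GTPase that binds the signal sequence, and SRP68 rose from RA to TA, with indices of 0.95 and 0.59. The call of SRP54 was lost without TA replicate 1 (0.78, limma, adjusted p = 0.0523) and that of SRP68 without RA replicate 3 (0.57, adjusted p = 0.0912) or TA replicate 1 (0.45, adjusted p = 0.181). SRP72, which binds with SRP68, had an index of −0.40 (adjusted p = 0.201).

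SRP19, which helps assemble the particle, was the exception in the stability index. Its values were 15.3 and 18.8 RPKM in TR, 13.7, 25.1 and 16.1 in RA, and 23.3 and 17.5 in TA. The groups overlapped throughout, the stability index was 0.06 with a standard error of 0.28 (limma, adjusted p = 0.856), and 18.2% of its exon bases overlap other genes of the same strand.

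Translocon genes had a median stability index of 1.03, and 6 of 9 were called above 0. SEC61G and SEC61B, the small subunits of the SEC61 channel, were the highest of their class at 2.41 and 2.12, together with SSR2 at 2.12, whereas SEC62, SEC63 and SSR1 were not called. SEC61G (chr7:54819943-54827667, minus strand, GRCh37) had 21.5 and 25.2 RPKM in TR, 143, 155 and 86.7 in RA, and 92.2 and 93.6 in TA. The RA libraries were 3 or more times the TR libraries, and RA replicate 3 lay below both TA libraries. Its stability index of 2.41 had a standard error of 0.26 (limma, adjusted p = 8.06e-05), and its translation index was −0.42 (adjusted p = 0.242) and 0.08 with libraries centred on their medians.

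SEC63, a J-domain partner of the ER chaperone HSPA5 at the channel, had 12.1 and 13.4 RPKM in TR, 8.13, 15.6 and 11.5 in RA, and 15.7 and 11.9 in TA. All 3 assays overlapped. Its stability index was −0.17 with a standard error of 0.28 (limma, adjusted p = 0.623), and 0.51 with libraries centred on their medians and 0.07 without RA replicate 1. SEC62, its partner, had a stability index of 0.46 (adjusted p = 0.0745).

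The 4 subunits of the translocon-associated protein complex (SSR1 to SSR4) did not share a pattern. SSR2 had 40.7 and 44.2 RPKM in TR, 129.8, 269 and 179.6 in RA, and 410 and 267 in TA, the highest translation index of the translocon at 0.84 with a standard error of 0.33 (limma, adjusted p = 0.0790). TA replicate 2 lay just under RA replicate 2, so TA and RA overlapped. SSR3 had 25.3 and 22.2 RPKM in TR, 41.8, 51.4 and 46.7 in RA, and 33.1 and 32.8 in TA. It was the lowest translocon gene on the translation index at −0.49 with a standard error of 0.16 (adjusted p = 0.0473), lying at 0.01 with libraries centred on their medians. This call was lost without each library in turn except RA replicate 1, with adjusted p between 0.0536 and 0.160. An annotated lncRNA on the opposite strand covers 20.8% of the exon bases of SSR3, and the strand setting of the counting is not given in the sources used here. SSR1 stayed close across assays, with 25.1 and 24.5 RPKM in TR, 28.2, 36.3 and 36.1 in RA, and 38.7 and 38.3 in TA, and its index of 0.42 was not called (adjusted p = 0.0562).

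Signal peptidase was the class with the widest stability index, from −0.48 to 2.80. Its catalytic subunits SEC11A and SEC11C are alternatives to each other, and both were higher in RA than in TR. SEC11C had 12.9 and 10.6 RPKM in TR, 54.4, 142 and 71.2 in RA, and 194 and 95 in TA, with a stability index of 2.80 and a standard error of 0.43 (limma, adjusted p = 0.000615). RA replicate 2 and TA replicate 1 lay well above their fellow replicates, and RA and TA overlapped. SEC11A was steadier, at 28.0 and 28.2 RPKM in TR, 74.1, 73.9 and 59.3 in RA, and 85.3 and 73.4 in TA, with an index of 1.29.

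SPCS1 and SPCS2 are accessory subunits, and they had unlike patterns. SPCS2 (chr11:74660306-74690078, plus strand, GRCh37) had 7.08 and 8.66 RPKM in TR, 6.40, 6.54 and 4.11 in RA, and 11.5 and 7.48 in TA, so that its RA libraries lay below TR and below TA without overlap. Neither index was called, at −0.48 (limma, adjusted p = 0.169) and 0.73 (adjusted p = 0.0826), and the first was 0.19 with libraries centred on their medians. Of its transcript, 52% has a copy elsewhere at up to 99.6% identity, so its values are uncertain. SPCS1 had 19.9 and 23.8 RPKM in TR, 64.7, 52.9 and 56.6 in RA, and 26.7 and 44.4 in TA.

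TA of SPCS1 lay below every RA library, and its translation index was −0.75 with a standard error of 0.24 (limma, adjusted p = 0.0418). Leaving out TR replicate 1, TR replicate 2, RA replicate 1, RA replicate 3 or TA replicate 1 lost this call, with a value of −0.38 without TA replicate 1. Exons of GLT8D1 and NEK4 on the opposite strand overlap 56.6% of its 5121 exon bases in GENCODE 44. Its RPKM values rest on an inferred 1084 bases, so the overlap of the counted exons is not known.

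The oligosaccharyltransferase was the most even class in the 6 subunits listed. Of 5 other tested subunits, 4 were called above 0 on the stability index, and KRTCAP2, at 0.09, was not. On the translation index 2 of these 5 were called above 0 and 1 below, from OST4 at −1.45 to KRTCAP2 at 1.32. All 6 listed subunits had a stability index above 0 (1.22 to 2.49, median 2.27), and TA lay above RA without overlap for all 6. Of the 6, 2, DAD1 and STT3A, were called on the translation index. RPN2 (chr20:35806813-35870022, plus strand, GRCh37), a structural subunit, had 67.0 and 34.1 RPKM in TR, 236, 303 and 270.3 in RA, and 464 and 395 in TA. Its stability index was 2.49 with a standard error of 0.31 (limma, adjusted p = 0.000167), and the TR libraries differed more than the RA libraries did. Across the class, TR replicate 2 was the lower TR library for 5 of 6 subunits, with a median ratio of 0.666 to TR replicate 1. For STT3A and DAD1 the TR libraries differed less than RA replicates 2 and 1 did.

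STT3A and STT3B are the catalytic subunits of the complex that works at the translocon and of the complex that modifies skipped sites later. STT3A had 24.3 and 22.9 RPKM in TR, 51.1, 66.0 and 49.7 in RA, and 121 and 88.2 in TA. STT3B had 30.3 and 23.2 in TR, 76.3, 86.4 and 90.3 in RA, and 98.6 and 97.6 in TA. STT3A had the lowest stability index of the class, 1.22, and its highest translation index, 0.90 with a standard error of 0.21 (limma, adjusted p = 0.0136), a call lost without RA replicate 3 (adjusted p = 0.0516) or TA replicate 1 (adjusted p = 0.0997). STT3B had the lowest translation index, 0.22 (adjusted p = 0.374), and the difference between the 2 genes was not tested.

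Chaperones and folding enzymes had the largest ratios of the 7 classes in TA over TR, with a median of 3.15. Of the 13, 12 were called above 0 on the stability index (median 2.24) and 4 on the translation index (median 0.98), and no member of the class was negative in either. All 13 had both TA libraries above both TR libraries, against 22.7% of all genes. HSPA5 (BiP, the HSP70 of the ER lumen; chr9:127997132-128003661, minus strand, GRCh37) had 111 and 149.9 RPKM in TR, 329, 1681 and 1023 in RA, and 2458 and 1624 in TA. RA replicates 2 and 3 were 5.11 and 3.11 times RA replicate 1, which was still above both TR libraries, and TA replicate 2 lay below RA replicate 2.

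The stability index of HSPA5 was 2.68 with a standard error of 0.64 (limma, adjusted p = 0.00631), and it was not called without TR replicate 1 (2.46, adjusted p = 0.0912) or TR replicate 2 (2.89, adjusted p = 0.0635). Without RA replicate 1 it was 3.34 (adjusted p = 0.000298). The translation index was 1.27 (adjusted p = 0.156), and it ranged from 0.61 without RA replicate 1 (adjusted p = 0.268) to 1.78 without RA replicate 2, where it was called (adjusted p = 0.0328).

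PDIA4, a disulphide isomerase, had the highest stability index of the 45 genes. It had 52.7 and 42.2 RPKM in TR, 222, 644 and 398 in RA, and 1175 and 679 in TA, which gave 3.02 with a standard error of 0.45 (limma, adjusted p = 0.000508). No assay overlapped another, and TA was on average 18.9-fold over TR on the fitted scale. PDIA3, the isomerase that works with calnexin and calreticulin, had the highest translation index, from 39.8 and 35.6 RPKM in TR, 96.4, 200.7 and 125 in RA, and 425 and 262 in TA. Its index was 1.31 with a standard error of 0.34 (adjusted p = 0.0206), and the call was lost without either TR library, RA replicate 3 or TA replicate 1, where it was 0.96 (adjusted p = 0.142). A copy elsewhere covers 52.1% of the PDIA3 transcript.

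The abundant lectin chaperone CALR was called on both indices, at 2.47 and 1.20 (limma, adjusted p = 0.0473 for the second), and its second call was lost without any library other than RA replicate 2. HSP90B1, the HSP90 of the ER, had 124 and 96.3 RPKM in TR, 469, 1666 and 824 in RA, and 2358 and 1234 in TA, with a stability index of 2.98. The other disulphide isomerases, PDIA6 and P4HB, and the cochaperone DNAJB11 had stability indices from 2.18 to 2.67. PDIA6 has 25.2% of its exon bases overlapped by ATP6V1C2 on the opposite strand.

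DNAJB9, an HSP70 cochaperone that represses IRE1, was lowest of its class on both indices. It had 13.8 and 14.2 RPKM in TR, 12.0, 32.1 and 27.0 in RA, and 24.4 and 22.1 in TA. RA replicate 1 lay below both TR libraries while the other RA libraries lay above TA. The stability index was 0.64 with a standard error of 0.38 (limma, adjusted p = 0.166) and was called without RA replicate 1. Its translation index was 0.09 (adjusted p = 0.884) and −0.34 without RA replicate 1.

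The 3 genes of ER-associated degradation had unlike patterns. HERPUD1, a membrane protein that recruits the ubiquitin ligase, had 56.0 and 86.4 RPKM in TR, 60.8, 257 and 262 in RA, and 286 and 272 in TA. RA replicate 1 fell between the TR libraries while RA replicates 2 and 3 were 4.22 and 4.31 times as high. Its stability index was 1.20 with a standard error of 0.60 (limma, adjusted p = 0.109), and 1.90 without RA replicate 1 (adjusted p = 0.000495). SEL1L, the scaffold of the ligase, had 8.08 and 8.28 RPKM in TR, 15.7, 39.2 and 29.7 in RA, and 48.0 and 27.2 in TA, with a stability index of 1.68 (adjusted p = 0.00534) that was not called without TR replicate 1 (adjusted p = 0.0684) or TR replicate 2 (adjusted p = 0.0693).

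EDEM1, which delivers misfolded glycoproteins to degradation, was the ER gene with the lowest translation index. The gene (chr3:5229331-5261643, plus strand, GRCh37) had 19.7 and 19.9 RPKM in TR, 9.37, 24.9 and 16.1 in RA, and 4.46 and 2.68 in TA. RA overlapped TR, and both TA libraries lay below every RA and TR library. The translation index was −2.14 with a standard error of 0.39 (limma, adjusted p = 0.00674), which placed EDEM1 in the lowest 1.03% of all genes, and TA over TR was −2.48 (adjusted p = 0.000945). Both calls held without each library in turn and with libraries centred on their medians. Its stability index of −0.35 was not called (adjusted p = 0.460), and it was 0.32 with libraries centred on their medians and 0.02 without RA replicate 1. No library held fewer than 370 reads of EDEM1.

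In the sensor group, ERN1 and ATF6 lay below XBP1 in every library. ERN1, the kinase and nuclease that splices XBP1 mRNA (chr17:62116440-62208179, minus strand, GRCh37), had 8.39 and 8.47 RPKM in TR, 4.12, 5.98 and 6.63 in RA, and 5.23 and 3.29 in TA. Every RA and TA library lay below both TR libraries. TA over TR was −1.01 with a standard error of 0.31 (limma, adjusted p = 0.0182), a call lost without TR replicate 1 (adjusted p = 0.0946), TR replicate 2 (adjusted p = 0.1) or TA replicate 2 (−0.68, adjusted p = 0.116), and the ratio was 0.17 with libraries centred on their medians. The stability and translation indices of ERN1, −0.62 and −0.39, were not called and were 0.06 and 0.11 after that centring.

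ATF6, a membrane-bound transcription factor that is cleaved on stress, ran the other way. It had 7.89 and 6.26 RPKM in TR, 12.0, 22.5 and 15.7 in RA, and 34.8 and 19.1 in TA. RA lay above TR in every library, and TA replicate 2 fell within RA. The stability index was 1.19 with a standard error of 0.33 (limma, adjusted p = 0.0132), not called without TR replicate 1 (adjusted p = 0.0675) or TR replicate 2 (adjusted p = 0.141), and TA over TR was 1.86 (adjusted p = 0.00185).

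XBP1 had 45.7 and 66.1 RPKM in TR, 47.9, 95.9 and 82.8 in RA, and 106 and 92.0 in TA. RA replicate 1 lay between the TR libraries, whereas the other RA libraries and both TA libraries lay above TR. None of its 3 ratios was called, at 0.40 (limma, adjusted p = 0.288), 0.45 (adjusted p = 0.297) and 0.84 (adjusted p = 0.0526). Without RA replicate 1 the stability index was 0.70 (adjusted p = 0.0294) and TA over TR was called (adjusted p = 0.0114), and TA over TR was also called without RA replicate 2 (adjusted p = 0.0318). The table gives 1 value per gene, so spliced and unspliced XBP1 cannot be told apart. PERK (EIF2AK3), the remaining sensor and not among the 45, had 8.06 and 8.56 RPKM in TR, 6.48, 7.28 and 8.97 in RA, and 7.14 and 7.10 in TA, with no index called.

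Set against each other, the machinery was more abundant than the sensor group in every assay and the gap was wider in RA and TA. The 39 machinery genes had median levels of 28.1 (TR), 101 (RA) and 144 RPKM (TA), and the 3 sensor genes had 8.43, 16.7 and 27.0 RPKM. The stability index was called above 0 for 33 of 39 machinery genes, with a median of 1.74, and for 1 of 3 sensor genes, with a median of 0.40. The difference in medians, 1.34, ranged from 0.61 to 2.01 over the 6 pairs of an RA and a TR library and from 0.90 to 1.77 when each library was left out. In the translation index the medians were 0.59 and 0.45, and their difference of 0.14 ranged from −0.25 to 0.41 over 6 library pairs, so it was not separated from 0. In TA over TR the difference was 1.28, with a range of 1.05 to 1.71 over 4 library pairs. The pairs share libraries, and 3 sensor genes that differ among themselves, from −0.62 for ERN1 to 1.19 for ATF6 in the stability index, allow no more than a description.

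RNA-seq replicates of the same line differed for the chaperone and degradation genes more than for the rest of the list. RA replicate 2 was more than 2-fold above RA replicate 1 for 13 of the 45 genes, against 5.4% of all genes, and more than 2-fold below for 0, against 7.11%. The 13 were HSPA5, HERPUD1, HSP90B1, PDIA4, DNAJB9, EDEM1, SEC11C, HYOU1, SEL1L, DNAJB11, PDIA3, SSR2 and PDIA6. HSPA5 was highest, at 2.35 on the log2 scale, above 99.7% of all genes, followed by HERPUD1 at 2.08.

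The classes were unequal in this contrast. All 3 degradation genes and 8 of 13 chaperones were past 2-fold, with medians of 1.40 and 1.06 on the log2 scale, and the sensor group had a median of 0.91. The medians were 0.30 for the translocon, 0.26 for the oligosaccharyltransferase and 0.00 for the signal recognition particle, the signal peptidase and all genes. RA replicate 3 was more than 2-fold above RA replicate 1 for HERPUD1, HSPA5 and DNAJB9, against 2.6% of all genes, and more than 2-fold below for 0, against 2.92%. RA replicate 2 was more than 2-fold above RA replicate 3 for HSP90B1, against 2.13%. The chaperones also differed between the other replicates. RA replicate 2 was above RA replicate 3 for 12 of 13, with a median of 0.60 on the log2 scale, beside 0.53 for RA replicate 3 over RA replicate 1. In TA, replicate 1 was above replicate 2 for 12 of 13 chaperones, with a median of 0.62, and for 39 of the 45 ER genes, with a median of 0.36, while the median of all genes was 0. It was more than 2-fold above for SEC11C, against 1.55% of all genes. In TR no ER gene differed by 2-fold in either direction, against 1.25% and 1.14% of all genes, although HERPUD1, XBP1 and HSPA5 were 0.63, 0.53 and 0.43 higher in TR replicate 2 on the log2 scale. These are ratios of single libraries and carry no test, the libraries are not labelled with a culture or a day, and whether the cells or their handling differed cannot be told apart, nor can a change in all cells from one in a fraction of them.

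**Figure D3:**
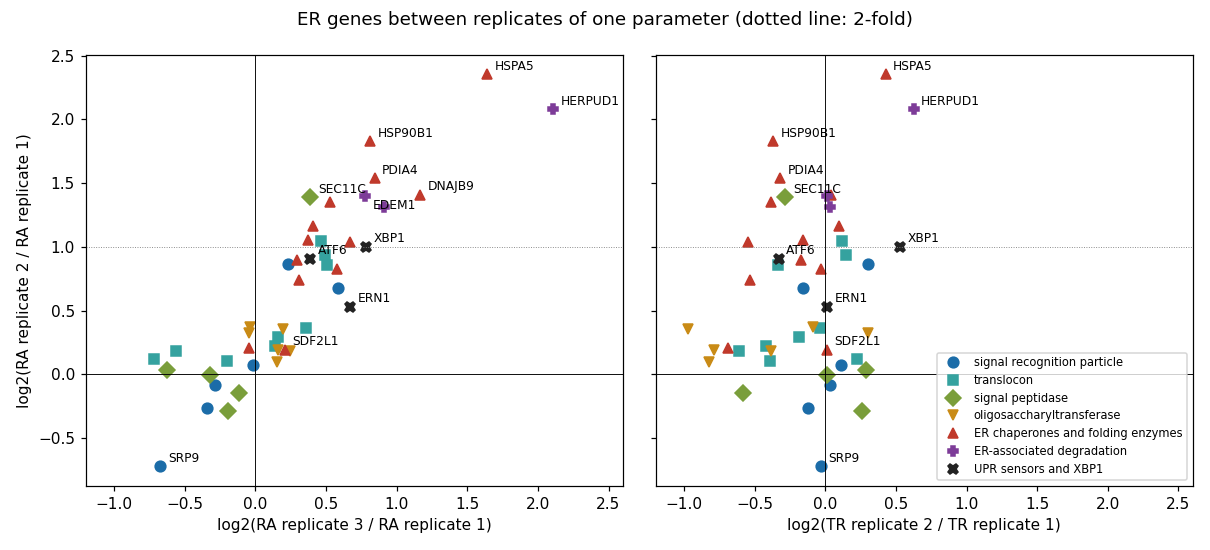
log2 ratio of RA replicate 2 over RA replicate 1 (y axis) against RA replicate 3 over RA replicate 1 (left) and TR replicate 2 over TR replicate 1 (right), 1 point per ER gene, by class. HSPA5 and HERPUD1 lay above 1.5 on both axes of the left panel, while oligosaccharyltransferase genes lay between 0.09 and 0.37 on the y axis.

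The 9 genes with ERSE or ERSE-II in the window had a median ratio of RA replicate 2 over RA replicate 1 of 1.04 on the log2 scale, and 5 of them were past 2-fold (HSPA5, HSP90B1, HERPUD1, HYOU1 and PDIA6). The 32 ER genes without either element had a median of 0.36, with 7 past 2-fold, and 22 other tested genes that hold an element had a median of 0.23, with 2 past 2-fold higher and 2 past 2-fold lower. SDF2L1 holds an ERSE-II match and was at 0.19. The median stability index was 2.29 for the 9 genes and 1.30 for the 32, and 0.04 for the 22 other genes. The 2 sets of ER genes also differ in class, since 7 of the 9 are chaperones, and no test was made.

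The ER genes differed widely in transcript structure. The untranslated share of the canonical mRNA (GENCODE 44 on GRCh37) ran from 13.3% for HSP90B1 to 91.8% for SPCS1, with a median of 50.2%, close to the 49.4% of 13095 tested genes. Across the 45 genes the share had a Pearson r of −0.563 with the stability index and −0.477 with the translation index, against 0.0991 and −0.165 across the 13095 genes. These are descriptions across genes that share libraries and classes. The 13 genes with a share under 35%, among them RPN1, RPN2, DDOST, SSR4, HSP90B1 and CALR, were all of the machinery and all had a translation index of positive sign, called or not, with a median of 0.73. The 7 genes with a share of at least 80% had a median of −0.45, with 3 of positive sign. Both limits were set after the values were seen. SPCS1, among the 7, has a canonical mRNA of 3786 bases, while its RPKM values rest on an inferred 1084, so its share is uncertain.

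**Figure D4:**
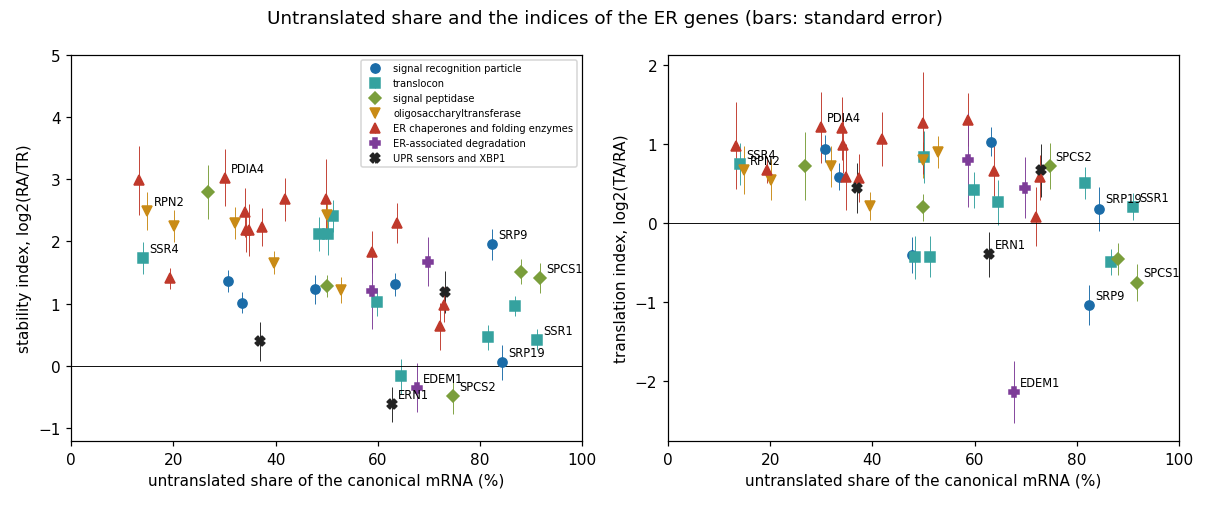
Untranslated share of the canonical mRNA (x axis, percent) against the stability index (left) and the translation index (right) of the 45 ER genes, by class, with standard errors as bars. Genes with a low share, such as RPN2 and PDIA4, lay high in both panels, and SRP9, SPCS1 and EDEM1 lay low on the translation index.

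Coding length ran alongside for the shortest genes. SEC61G, SRP9, SEC61B and SPCS1, which code for the smallest proteins of the list (under 310 coding bases), all had a translation index of negative sign, with a median of −0.59. The limit lies just above SPCS1, at 306 coding bases. The next shortest, DAD1 (339) and SRP14 (408), went the other way, at 0.80 and 1.03, both called. Of 321 tested genes with a coding length under 310 bases, 275 were negative as well, with a median of −0.84. The polysome fractions were gathered by their absorbance, and the part of length in these values was not tested.

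Other genes of the same pathway gave a background for the list. Outside the 45, 52 genes of targeting, glycosylation, folding, degradation and UPR signalling were tested. On the stability index 28 were called above 0 and 6 below, against 19.2% and 48% of all genes, with a median of 0.79. On the translation index 13 were above 0 and 8 below, against 6.66% and 29.2% of all genes, with a median of 0.14. The highest stability index was that of PPIB, an ER prolyl isomerase, at 2.57, and the lowest that of DERL3, of the degradation channel, at −6.75, whose RA was at most 0.077 RPKM against 13.4 and 15.9 in TR. The highest translation index was that of MANF, a secreted ER stress protein, at 1.46, and the lowest that of OST4, the smallest oligosaccharyltransferase subunit, at −1.45. Of 11 UPR signalling genes, 3 were called above 0 and 2 below on the stability index, against 19.2% and 48% of all genes. Their median was −0.11, beside −0.58 for all genes.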

How the data were processed

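RPKM values of TR, RA and TA in 7 HCT116 libraries were used as deposited by the authors, who mapped reads to hg19 with TopHat, counted exonic reads with HTSeq-count and scaled them by exon length and library size. The strand setting, counting mode and gene annotation are not given in the sources used here. Each library's size was inferred from its low values, and each gene's exon length as one that gives whole reads. That 100% of values above 0 were then whole within 0.001 follows largely from this choice and is no check. On simulated data the step recovered 7 of 7 library sizes. The limma test for TA against RA was also tested on simulated data. Assays were compared on log2(RPKM + 0.1) by limma 3.58.1 (R 4.3.3) with trended eBayes, a scale that understates changes of low genes. All 7 libraries entered 1 fit without a covariate, genes whose mean reached 1 RPKM in any assay were tested, and p-values were Benjamini-Hochberg adjusted over 14305 genes at a threshold of 0.05. Standard errors, adjusted p-values and folds come from that fit.

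Promoter windows came from RefSeq, gene models from GENCODE 44 on GRCh37, and copies from aligning canonical transcripts to GRCh37 (at least 95% identity over 50 bases). Exon overlaps and untranslated shares describe these gene models, which need not be the exons counted for RPKM. The counted exon lengths were inferred along with the library sizes. The members and lists were chosen with earlier results of these data known. Libraries are given for the sensor and degradation genes, HSPA5, and the highest and lowest gene of each other class on both indices, and HSP90B1, SSR1, SEC11A and EIF2AK3 were added after their values were seen. Alternatives were other pseudocounts and filters, centring, a replicate block, other fits and each library left out.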

Additional observations from a re-analysis of the deposited data

How the results depend on the processing

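The paper describes log-phase cells divided among the assays, and the labels do not say which libraries shared a culture. Correlations of replicate differences cannot settle this. Over 10825 genes, differences between replicates 1 and 2 correlated at 0.149 between RA and TR, −0.562 between RA and TA and 0.02 between TR and TA. The difference of RA replicates 2 and 3 correlated at 0.741 with that of TA replicates 1 and 2, a match across unlike numbers. With the number as a replicate block, the stability index was above 0 for 33 ER genes and for 2083 of all 14305 genes. TA over TR was above 0 for 36 ER genes and below for 2, beside 2173 and 7754 of all genes. The translation index was above 0 for 0 ER genes and below for 0. All genes also lost calls there, from 953 to 109 above 0 and from 4173 to 1387 below. A crossed replicate block, with TA replicates 1 and 2 exchanged, was chosen after seeing the data, as were voom weights. The crossed block gave 1 ER gene below 0 in the stability index, beside 6687 of all genes. In the translation index it gave 5 above 0, beside 680 of all genes.

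The count above 0 in the translation index, 9, was 26 with libraries centred on their medians and 1 to 16 with each library left out. The count below 0, 4, was 1 after centring, 2 with no filter, with no trend or with only the libraries compared, and 1 to 4 with each library left out. TA over TR was below 0 for 1 gene after centring and for 1 to 2 with each library left out. Centring turned the stability index of ERN1 to 0.057, EDEM1 to 0.32, SEC63 to 0.51 and SPCS2 to 0.19, the translation index of ERN1 to 0.11, SEC61G to 0.082 and SSR3 to 0.0091, and TA over TR of ERN1 to 0.17. With each library left out, the stability index ranged from −0.68 to 0.016 for EDEM1, −0.19 to 0.24 for SRP19 and −0.39 to 0.072 for SEC63, the translation index from −0.017 to 0.44 for SRP19 and −0.34 to 0.36 for DNAJB9, and TA over TR from −0.10 to 0.30 for SEC63 and −0.065 to 0.55 for SPCS2. The causes were not tested. Of the other values, 1044 for single genes kept their direction and side of the threshold, and 84 single-gene calls were lost and 29 gained. A further 127 counts or class differences stayed within a set margin of their main value, which allows a count to change. With 2 or 3 libraries a group, and TR read least deeply, changes near 2-fold are at the limit of these data.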

Other observations

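Among 11 UPR signalling genes outside the 45, 3 were past 2-fold in RA replicate 2 over RA replicate 1. Of the others, ATF4, CREB3L2 and PPP1R15B were at 0.87, 0.83 and 0.74 on the log2 scale. CREB3, EIF2AK3 and MBTPS1 were at 0.25, 0.17 and 0.058, and MBTPS2 and ATF6B at −0.30 and −0.88. DDIT3 (CHOP, a stress-induced transcription factor) had 59.1 and 111 RPKM in TR, 30.4, 358 and 306 in RA, and 127 and 190.2 in TA, so RA replicate 1 lay below both TR libraries and the other RA libraries above every TA library. TRIB3, a pseudokinase induced with it, had 19.3 and 22.9 RPKM in TR, 20.5, 181 and 94.98 in RA, and 106 and 62.2 in TA. PPP1R15A, which guides the phosphatase that restores translation after stress, had 29.9, 159 and 70.6 RPKM in RA. In all, 8 of the 52 tested pathway genes outside the list were past 2-fold in that ratio, against 5.4% of all genes. In the other direction 0 were past 2-fold, against 7.11%. DDIT3, TRIB3 and PPP1R15A were picked after their values were seen, and none of their indices was called by limma.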
